A study of Homo sapiens with 6 samples.

Results

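The genes described here are 3 receptors of the EGFR family (EGFR, ERBB3 and ERBB4) and 7 of their ligands (EGF, AREG, EREG, HBEGF, TGFA, BTC and NRG1), 10 genes of the 43260 that a probe of the arrays matched. They were chosen by name, and all of their probes were taken, 38 of 125601. The cells were SKOV3, a long-established line from a human ovarian carcinoma, and the agent was 1α,25(OH)2D3, the hormonal form of vitamin D, which acts through a nuclear receptor. Total RNA was measured on 6 single-color Agilent arrays, 3 labelled VD (SKOV3 cells given 100 nmol/L 1α,25(OH)2D3) and 3 labelled vehicle (SKOV3 cells given the matching ethanol), all after 72 h in the same serum-supplemented medium. No source says that the 3 samples of a label came from separate cultures, so p-values measure the spread between these arrays, which may be technical.

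The receptors of the family are tyrosine kinases that pair at the cell surface when a ligand binds, and they signal mainly through the RAS-ERK and PI3K-AKT cascades. Their ligands are made as membrane-anchored precursors that proteases such as ADAM17 cut free. EGF, TGFA and AREG bind EGFR, BTC, HBEGF and EREG bind EGFR and ERBB4, and NRG1 binds ERBB3 and ERBB4. In epithelial tumors, the ovary included, these ligands are known as autocrine growth factors. ERBB2, the family's receptor without a known ligand, is not among the genes described.

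The deposited gene names could not be used, because they repeat the probe names, so each probe was assigned by an exact sense match of its sequence to annotated transcripts (GENCODE release 44, hg38). Of the 38 probes, 18 matched a protein-coding transcript and 20 matched only transcripts of these genes without an annotated coding sequence, many of them annotated as keeping an intron. Detection is given below by this division. Some probes of each kind are shown 5′ to 3′ in the direction of the transcript, without the coding probes of ERBB4, EGF and EREG. Capitals mark bases in coding exons of the gene's principal transcript, and lower case marks bases in its introns.

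The receptor probes were the following.
EGFR A_33_P3351955 (chr7:55163753-55163812, plus strand): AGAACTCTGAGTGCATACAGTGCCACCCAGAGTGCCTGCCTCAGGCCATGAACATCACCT
ERBB3 A_33_P3280471 (chr12:56088596-56088655, plus strand): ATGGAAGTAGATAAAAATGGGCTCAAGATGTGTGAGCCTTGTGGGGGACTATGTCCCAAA
ERBB3 OEV5_42640 (chr12:56095468-56095527, plus strand): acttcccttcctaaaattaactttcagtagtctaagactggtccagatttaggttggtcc
ERBB4 OEV5_01560 (chr2:211657671-211657730, minus strand): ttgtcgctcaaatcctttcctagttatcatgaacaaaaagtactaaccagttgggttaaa

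The ligand probes were the following.
EGF OEV5_16829 (chr4:109940906-109940965, plus strand): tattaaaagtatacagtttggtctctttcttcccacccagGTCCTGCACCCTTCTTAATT
EGF OEV5_47762 (chr4:109959265-109959324, plus strand): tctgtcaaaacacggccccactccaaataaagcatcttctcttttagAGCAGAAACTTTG
TGFA A_33_P3408203 (chr2:70456340-70456399, minus strand): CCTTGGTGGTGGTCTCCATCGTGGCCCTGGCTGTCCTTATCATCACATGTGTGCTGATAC
EREG OEV5_40189 (chr4:74381598-74381657, plus strand): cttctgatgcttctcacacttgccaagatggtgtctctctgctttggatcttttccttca
BTC A_23_P135722 (chr4:74750628-74750687, minus strand): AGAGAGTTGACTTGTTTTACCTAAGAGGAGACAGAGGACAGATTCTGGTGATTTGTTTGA
HBEGF OEV5_31330 (chr5:140334739-140334797, minus strand): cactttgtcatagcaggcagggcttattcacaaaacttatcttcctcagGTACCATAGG

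The EGFR probe A_33_P3351955 lies in coding exon 14, ERBB3 A_33_P3280471 in coding exon 8, TGFA A_33_P3408203 in coding exon 4 and BTC A_23_P135722 in coding exon 4. The ERBB3 and ERBB4 probes in lower case both lie in intron 16 of their gene, and the EREG probe lies in intron 3. Probes EGF OEV5_16829, EGF OEV5_47762 and HBEGF OEV5_31330 run across an intron-exon border, with 20, 13 and 10 bases in exons 2, 6 and 5. A spliced mRNA therefore holds only those bases of the probe. Of the 38 member probes, 36 had 1 exact match in the hg38 genome, and the other 2 cross a splice junction and had none in the unspliced genome. The most identical bases any of them shared with an aligned transcript of another gene was 31.

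The arrays went against their labels in one respect that bears on every comparison below. CYP24A1 encodes the enzyme that degrades 1α,25(OH)2D3 and is a well-known target of its receptor. Its probe A_23_P28815 (chr20:54154407-54154466, minus strand, 3' UTR in exon 12) had log2 values of 2.23, 13.84 and 3.30 on the arrays labelled VD replicates 1, 2 and 3, and of 14.18, 4.75 and 14.34 on the corresponding vehicle arrays. The scanner flagged this probe as well above background on VD replicate 2 and vehicle replicates 1 and 3 alone. Comparisons are therefore between labels, not between treatments, and the arrays high in CYP24A1 are not a group by the labels and were not tested as one. Slide 1 carried VD replicates 1 and 2, and slide 2 carried VD replicate 3 and all vehicle arrays. A log2 fold change with the slide as a block therefore sets VD replicate 3 alone against the vehicle arrays.

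Each array held 175812 spots that were not controls, none was saturated, and 49.1% to 57.5% of probes were well above background, the scanner's flag for a spot brighter than its surroundings. Epithelial and ovarian markers were well above background on all 6 arrays for 9 of the 10 with a probe, KRT7 and EPCAM among them, and CDH1, the adhesion protein of epithelia, on vehicle replicate 1 alone. The 6 leukocyte markers with a probe were also well above background on all arrays, at log2 values of 4.91 to 10.26, as were 3 of 5 endothelial markers and 4 of 7 fibroblast markers, while DCN, PDGFRA, KDR and TEK were on no array. The 4 fibroblast markers, and KRT18, PAX8 and ERBB2 among the epithelial and ovarian ones, were read by probes that match only non-coding transcripts. Of these lists, CD68 alone differed between labels past a fold change of 2 with an unadjusted p under 0.05 (log2 fold change -1.12, limma adjusted p = 0.701), on a probe that matches 2 genes. In RNA from whole cultures, fewer cells of a type and less RNA per cell cannot be told apart.

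Detection differed among the probes of the family. Of the 18 coding-transcript probes, 11 were well above background on all 6 arrays, 5 on none and the remaining 2 on 4 arrays each. Of the 20 probes to non-coding transcripts, 10 were on all 6, 8 on none and 2 on 1 array. Over the whole table, 57069 of 125601 probes were on all 6. Of all probes that match a protein-coding transcript, 19238 of 26900 had the flag on every array of at least 1 label, and of the 18 here 11 did. The family's counts are descriptions and were not tested against these shares. Coding transcripts of EGFR, ERBB3, AREG, TGFA, HBEGF and NRG1 were read on every array by at least 1 probe. No coding probe of ERBB4, EGF or EREG was well above background on any array. At least 1 probe to non-coding transcripts was on all 6 for each of these 3 genes. Those probes lie in an intron of ERBB4 and of EREG and across intron-exon borders of EGF. Other intron probes of the same genes were not, with ERBB4 OEV5_27559 on 1 array. EREG OEV5_70351, EGF OEV5_39804 and EGF OEV5_42207 were on none. Unspliced RNA of a gene holds the same intron bases, so intron and border probes cannot tell it from the annotated non-coding transcripts. A probe not well above background gives no more than an upper bound, and these data do not say that its transcript was absent.

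**Figure D1:**
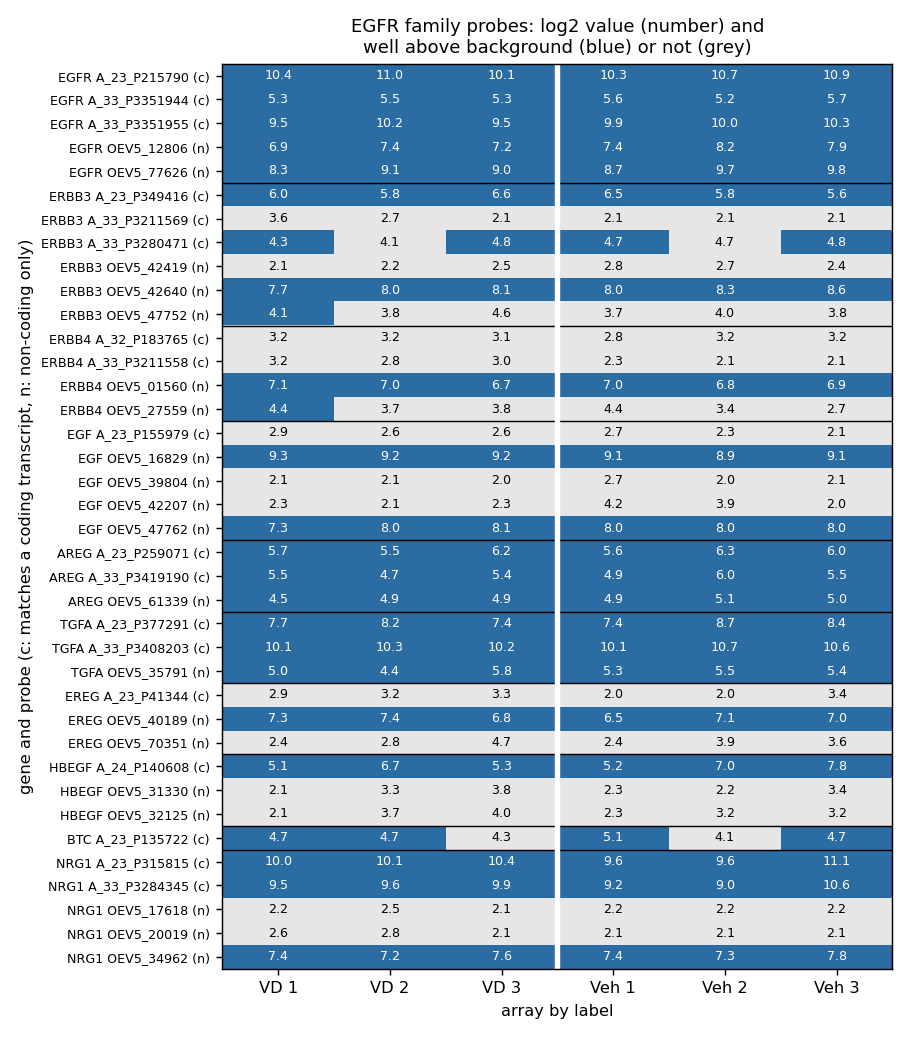
Log2 values (numbers) of the 38 probes of the 10 genes on each of the 6 arrays (columns, by label), with blue for well above background and grey for not, and c or n for a probe that matches a coding transcript or only non-coding ones. All coding probes of ERBB4, EGF and EREG are grey across the 6 arrays, and 1 or more n probes of each of these genes are blue across all 6.

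Values below are log2 values of the authors' table, in the order VD replicates 1, 2 and 3 and then vehicle replicates 1, 2 and 3. Levels of different probes are not compared, since each probe has its own brightness. The labels were compared with limma over the 63336 probes that had the flag on each array of one label or of both. A probe was called where its fold change was above 2 with an unadjusted p under 0.05, and separately where its Benjamini-Hochberg adjusted p over all tested probes was under 0.05.

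EGFR itself, the receptor for most of these ligands, was read by 5 probes, all well above background on every array. Probe A_23_P215790 in the 3' UTR (exon 28, chr7:55207148-55207207, plus strand) had values of 10.42, 11.02 and 10.13 with the label VD and of 10.26, 10.66 and 10.87 with the label vehicle. The labels overlapped, with the highest and the lowest value both on arrays labelled VD, and the log2 fold change was -0.07 ± 0.267 (SE, n = 3 per label, 95% interval -0.70 to 0.55, limma adjusted p = 0.951). The exon 14 probe printed above had values of 9.48, 10.18 and 9.48 against 9.95, 9.96 and 10.28. Its 2 lowest values were on VD replicates 1 and 3, and its log2 fold change of -0.35 ± 0.232 did not pass (limma adjusted p = 0.715).

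The third EGFR coding probe, A_33_P3351944, lies in intron 10 of the principal transcript and matches a short transcript of 405 codons, where the full receptor has 1210. Its values were 5.31, 5.52 and 5.26 against 5.56, 5.23 and 5.73, a log2 fold change of -0.14 ± 0.183 (limma adjusted p = 0.840). Its 3 highest values were those of the arrays with the 3 highest CYP24A1 values, all 3 between 5.52 and 5.73, with the others between 5.23 and 5.31. Of the 21 member probes tested, 1 had its 3 highest values there and 0 had their 3 lowest, and over all tested probes 6.17% had one or the other (3.29% the highest, 2.88% the lowest).

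The remaining 2 EGFR probes, both in intron 1, matched only non-coding transcripts. Probe OEV5_12806 had values of 6.95, 7.41 and 7.15 against 7.37, 8.22 and 7.87. The labels overlapped at VD replicate 2 and vehicle replicate 1, and the log2 fold change of -0.65 ± 0.246 had the smallest p of the family (limma adjusted p = 0.701). OEV5_77626 had values of 8.30, 9.14 and 8.98 against 8.70, 9.71 and 9.76, with a log2 fold change of -0.59 ± 0.341 (limma adjusted p = 0.703). All 5 EGFR probes were lower on average with the label VD (A_23_P215790 changed sign when single arrays were left out), and none passed either threshold. After centring each on its own mean, the 3' UTR and exon 14 probes differed by a root mean square of 0.20 over the 6 arrays, and the intron 1 pair by 0.22.

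ERBB3, a receptor with little kinase activity of its own that signals through its partners, was read by 6 probes. The 3' UTR probe A_23_P349416 (exon 28, chr12:56102376-56102435, plus strand) had values of 5.998, 5.81 and 6.58 against 6.55, 5.83 and 5.64. The highest values belonged to VD replicate 3 and vehicle replicate 1, so the labels overlapped (log2 fold change 0.13 ± 0.295, limma adjusted p = 0.918). The exon 8 probe was well above background on VD replicates 1 and 3 and vehicle replicates 1 and 3, spanned 4.09 to 4.78 over the arrays and was not tested. The intron 16 probe OEV5_42640 had values of 7.68, 7.99 and 8.12 against 7.96, 8.29 and 8.64. Its log2 fold change of -0.37 ± 0.220 (limma adjusted p = 0.704) ran opposite to that of the 3' UTR probe, and neither differed beyond the spread of the arrays. Probe A_33_P3211569, in intron 3, matches a coding transcript of 183 codons against 1342 for the receptor and was well above background on no array. Of the other non-coding probes, OEV5_42419 was on no array and OEV5_47752 on VD replicate 1 alone.

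ERBB4, the receptor for neuregulins and several EGF-like ligands, gave no detected coding signal. Its coding probes were below the flag on all arrays, A_33_P3211558 at 2.06 to 3.19 and the 3' UTR probe A_32_P183765 at 2.78 to 3.23. The intron 16 probe OEV5_01560 had values of 7.10, 6.95 and 6.70 against 7.01, 6.84 and 6.94. These 6 values lay within 0.40 of each other, and the log2 fold change was -0.01 ± 0.164 (limma 95% interval -0.40 to 0.37, adjusted p = 0.985). Probe OEV5_27559 in intron 2 was well above background on VD replicate 1 alone.

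EGF, the founding ligand, followed the same division. Its coding probe A_23_P155979 in the 3' UTR (chr4:110011533-110011592, plus strand) stayed between 2.12 and 2.94 and was well above background on no array. The border probe OEV5_16829, with 40 of its 60 bases in intron 1, had values of 9.25, 9.17 and 9.16 against 9.05, 8.93 and 9.09. Each VD value was above each vehicle value, the one member probe of 21 tested whose labels did not overlap, against 12.2% of all tested probes (7.03% higher and 5.18% lower with the label VD). The difference was small, a log2 fold change of 0.17 ± 0.142 (limma adjusted p = 0.752). The second border probe, OEV5_47762, had values of 7.35, 7.99 and 8.13 against 8.05, 8.02 and 7.97, with VD replicate 1 the lowest (log2 fold change -0.19 ± 0.223, limma adjusted p = 0.821). The direction of OEV5_47762 turned with the slide as a block. OEV5_39804 and OEV5_42207, in introns 21 and 13, were on no array.

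TGFA, a ligand of EGFR made by many carcinomas, was read by 3 probes on every array. The exon 4 probe A_33_P3408203 had values of 10.14, 10.27 and 10.24 against 10.15, 10.72 and 10.63. Vehicle replicates 2 and 3 stood above the rest and vehicle replicate 1 lay among the VD arrays (log2 fold change -0.28 ± 0.190, limma adjusted p = 0.718). The 3' UTR probe A_23_P377291 (chr2:70448187-70448246, minus strand) had the same 2 arrays highest, with values of 7.67, 8.15 and 7.37 against 7.42, 8.68 and 8.41 and a log2 fold change of -0.43 ± 0.352 (limma adjusted p = 0.748). The spliced non-coding probe OEV5_35791 had values of 5.02, 4.36 and 5.83 against 5.25, 5.48 and 5.35. It was lowest on VD replicate 2 and highest on VD replicate 3 (log2 fold change -0.29 ± 0.341, limma adjusted p = 0.821), and its direction turned with the slide as a block.

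AREG, EREG and BTC lie in one region of chromosome 4 (chr4:74445136-74455005, chr4:74365145-74388749 and chr4:74744759-74794523). AREG, amphiregulin, was read by 3 probes on every array. A_23_P259071, which lies in exon 6 (3' UTR of the principal transcript and coding in another), had values of 5.66, 5.55 and 6.23 against 5.61, 6.31 and 5.998. Vehicle replicate 2 and VD replicate 3 were highest, so the labels overlapped (log2 fold change -0.16 ± 0.254, limma adjusted p = 0.870, opposite in sign with the slide as a block). A_33_P3419190, at the end of the coding sequence in exon 5, had values of 5.55, 4.66 and 5.40 against 4.94, 6.003 and 5.51. Vehicle replicate 2 was again the highest array and VD replicate 2 again the lowest (log2 fold change -0.28 ± 0.329, limma adjusted p = 0.819). The intron 2 probe OEV5_61339 spanned 0.65 over the arrays, with a log2 fold change of -0.26 ± 0.179 (limma adjusted p = 0.721).

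EREG, epiregulin, had its coding probe A_23_P41344 (3' UTR, chr4:74388292-74388351, plus strand) at 2.02 to 3.38, well above background on no array. The intron 3 probe OEV5_40189 had values of 7.33, 7.41 and 6.75 against 6.46, 7.08 and 6.98. VD replicates 1 and 2 were highest and vehicle replicate 1 lowest. The log2 fold change of 0.33 ± 0.246, the highest of the tested member probes, did not pass (limma adjusted p = 0.734) and turned to -0.086 within slide 2. The other intron 3 probe of EREG, OEV5_70351, lay at 2.37 to 4.72 and was well above background on no array. BTC, betacellulin, had 1 probe, with values of 4.67, 4.67 and 4.25 against 5.07, 4.05 and 4.68. It was well above background on VD replicates 1 and 2 and vehicle replicates 1 and 3, fell short of the filter for both labels and was not tested.

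HBEGF, the heparin-binding ligand of EGFR and ERBB4, varied most between arrays. Its 3' UTR probe A_24_P140608 (exon 6, chr5:140333467-140333526, minus strand) had values of 5.14, 6.71 and 5.26 against 5.17, 6.97 and 7.81. VD replicate 2 and vehicle replicates 2 and 3 lay at 6.71 or above, and the others lay at 5.26 or below, with both labels on each side. Its range of 2.67 was reached or passed by 0.296% of the 57069 probes well above background on all arrays, whose median range was 0.65. The order was not that of CYP24A1, which was high on vehicle replicate 1, where HBEGF was low, and low on vehicle replicate 2, where HBEGF was high.

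Between the labels, this HBEGF probe had the largest difference of the tested member probes. Its log2 fold change was -0.95 ± 0.689 (95% interval -2.55 to 0.66), within the spread of the arrays (limma adjusted p = 0.726). Without vehicle replicate 1 it was -1.69 and past the unadjusted threshold, and without vehicle replicate 3 it was -0.37. The probe across the border of intron 4 and exon 5, OEV5_31330, and the intron 2 probe OEV5_32125 were well above background on no array.

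NRG1, neuregulin 1, lies on chromosome 8. The probe A_23_P315815 across coding exons 5 and 6 had values of 9.98, 10.12 and 10.42 against 9.63, 9.55 and 11.11. Vehicle replicate 3 was the highest array and vehicle replicates 1 and 2 the lowest, with all VD arrays between them (log2 fold change 0.08 ± 0.405, limma adjusted p = 0.966). Its range of 1.56 was reached or passed by 4.06% of probes. The exon 6 probe A_33_P3284345 had values of 9.52, 9.63 and 9.89 against 9.21, 8.99 and 10.62, and the centred values of the pair differed by a root mean square of 0.045. Both read the same exon, so they are not independent. The intron 7 probe OEV5_34962 spanned 0.54 over the arrays, also with vehicle replicate 3 highest, at 7.77 (log2 fold change -0.07 ± 0.197, limma adjusted p = 0.931). The other 2 NRG1 probes, OEV5_17618 and OEV5_20019, lie outside the principal transcript and were on no array.

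**Figure D2:**
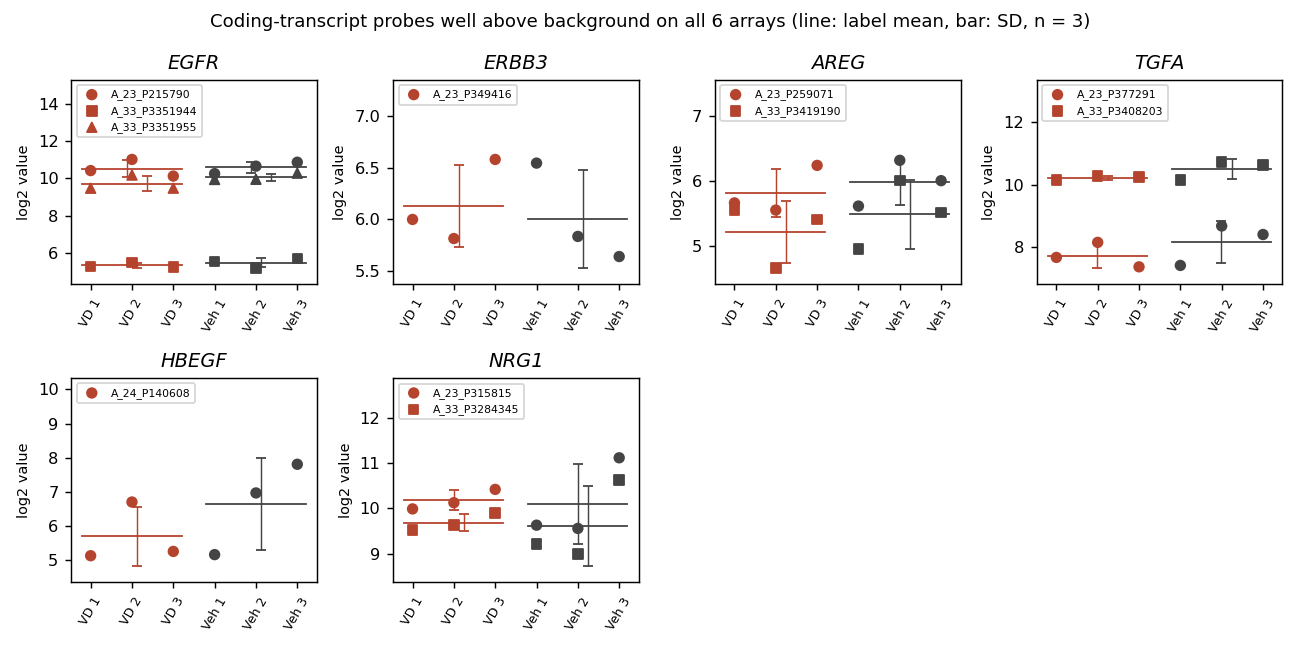
Log2 values of the 11 coding-transcript probes well above background on all 6 arrays, by gene, on the arrays labelled VD (red) and vehicle (Veh, grey), with a line at each label's mean and a bar for the SD (n = 3). The labels overlap for each of the 11 probes, and HBEGF has values near 5 and near 7 or above within both labels, from 5.14 to 7.81.

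Over the family, 21 probes of 9 genes were tested and 17 were not, those of BTC among the latter. Of the 21, 0 were called at the unadjusted threshold, where 0.745% of all 63336 tested probes were (472 probes). Of all tested probes, 308 (0.486%) were called higher and 164 (0.259%) lower with the label VD, so that 65.3% of the calls were higher, and 44.1% of 34 calls with normexp background correction. With limma 1 of the 21 had an unadjusted p under 0.05, EGFR OEV5_12806, against 6.77% of all probes. After adjustment 0 of the 21 passed, as did 0.0% of all probes, and the smallest adjusted p over the whole table was 0.701.

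Of the 21 probes, 16 were lower and 5 higher on average with the label VD, 8 and 3 among the 11 coding probes, and with normexp correction a probe of NRG1 turned, for 17 and 4. The median log2 fold change was -0.19, and that of all tested probes was -0.0037. With the slide as a block 13 were lower and 8 higher. Probes of a gene share its transcript, so the 21 are not independent. Of the 21 intervals at 95%, that of EGFR OEV5_12806 alone did not reach 0, from -1.22 to -0.08. A missed threshold does not show equal levels, as the interval for HBEGF reaches past a fold change of 2 in the lower direction.

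**Figure D3:**
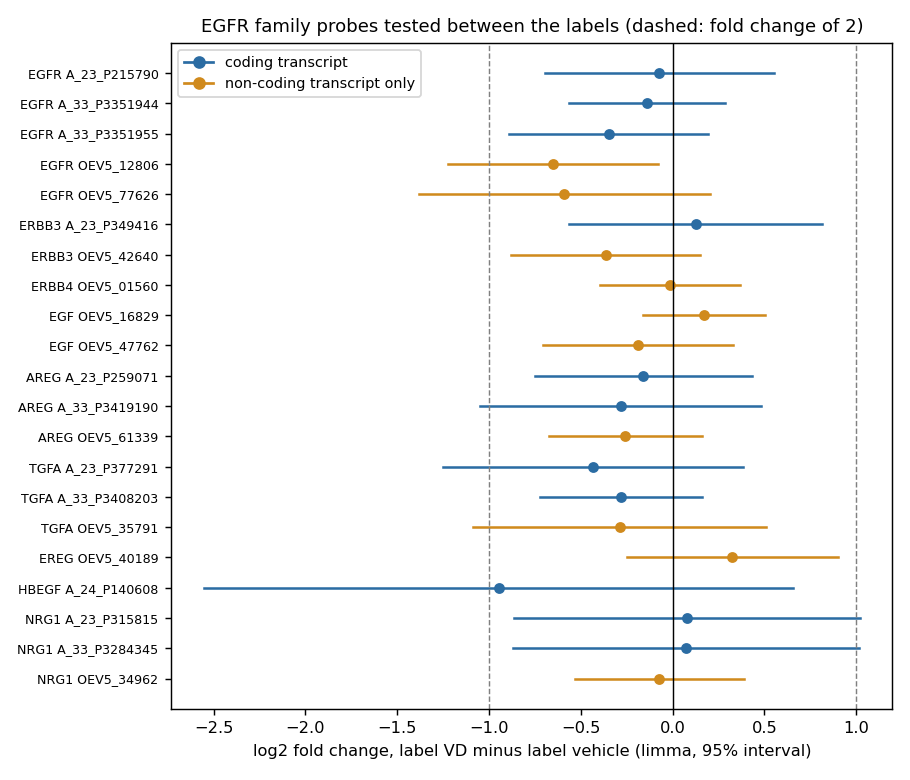
Log2 fold change (label VD minus label vehicle) of the 21 tested probes with 95% intervals from limma, blue for coding-transcript probes and orange for non-coding ones, with dashed lines at a fold change of 2. The points lie between -0.95 (HBEGF) and 0.33 (EREG), and the interval of EGFR OEV5_12806 is the one that does not reach 0.

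The genes that act before and after these receptors were taken as a list of 53, each read by the probe with the highest mean. Of these, 52 were tested, and 33 were higher and 19 lower with the label VD, with a median log2 fold change of 0.10. None was called, where 0.745% of all tested probes were. For 3 of the 52, against 6.77% of all tested probes, limma gave an unadjusted p under 0.05, DUSP6, PHLDA1 and RHBDF1, which are named after their values were seen. By role, higher and lower genes numbered 3 and 0 for ligand release, 7 and 2 for inhibitors at the receptor, 4 and 3 for adaptors and exchange factors, 8 and 7 for the kinase cascades, and 11 and 7 for targets and feedback regulators of ERK. RHBDF2, which helps ADAM17 reach the surface, was the gene not tested, well above background on 0 arrays by its only probe, which matches no coding transcript. The probes that read RHBDF1, SOCS5, GAB1, PTPN11 and ETV4 also matched only non-coding transcripts.

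DUSP6, the phosphatase that ERK induces and that inactivates it, had values of 7.20, 7.48 and 7.60 against 6.45, 6.36 and 6.60. The labels did not overlap, as for 12.2% of all tested probes. On the list this also held for AKT1 and SPRED2, higher with the label VD, and for GRB2, ARAF and MAPK3, lower. For DUSP6, VD arrays were higher by 0.96 ± 0.169 on the log2 scale, short of a fold change of 2 at 1.94-fold (limma adjusted p = 0.701). With the slide as a block the log2 fold change of DUSP6 was 1.13, which rests on VD replicate 3 alone among the VD arrays. PHLDA1 had a log2 fold change of 0.64 (limma adjusted p = 0.701) with overlapping labels. RHBDF1, a relative of RHBDF2, had 0.50 on a non-coding probe (limma adjusted p = 0.701), 0.20 within slide 2, and -0.06 on its coding probe A_23_P163682.

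Of the list, FOSL1, CCND1, CBLB, MYC and DUSP5 ranged most widely over the arrays. FOSL1, an AP-1 transcription factor subunit, had values of 10.01, 11.69 and 10.13 against 9.90, 12.55 and 12.63. As for HBEGF, VD replicate 2 and vehicle replicates 2 and 3 were high and the other 3 arrays low (log2 fold change -1.08 ± 0.774, limma adjusted p = 0.726, and -1.98 without vehicle replicate 1, past the unadjusted threshold). CCND1, cyclin D1, was lowest on vehicle replicate 1 at 9.46 and highest on vehicle replicate 2 at 11.46 (log2 fold change -0.02). CBLB, a ubiquitin ligase that removes active receptors, ran the other way, highest on vehicle replicate 1 at 10.46 and lowest on vehicle replicate 2 at 8.66 (log2 fold change 0.45, and 0.03 on its other probe). That value of 0.45 rested on single arrays, at 0.94 without vehicle replicate 1 and 0.037 without vehicle replicate 2. MYC and DUSP5 were lowest on vehicle replicate 1 and highest on vehicle replicate 3, and their log2 fold changes of -0.18 and -0.26 changed sign when single arrays were left out.

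The genes with a pattern most like that of HBEGF were sought among 45000 named probes well above background on all 6 arrays, by the root mean square difference of centred values, whose median was 1.06. The nearest 5 were OSBP2 (0.27), SGK1 (0.27), FOSL1 (0.28), DUSP7 (0.29) and SEMA7A (0.37). SGK1, a serum-induced kinase, had values of 6.81, 7.79 and 6.15 against 6.58, 7.92 and 9.11. DUSP7, a dual-specificity phosphatase, had values of 9.82, 10.99 and 10.10 against 9.99, 11.45 and 11.84. For both, the 3 highest values were on VD replicate 2 and vehicle replicates 2 and 3. These likenesses rest on 6 arrays and are descriptions.

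**Figure D4:**
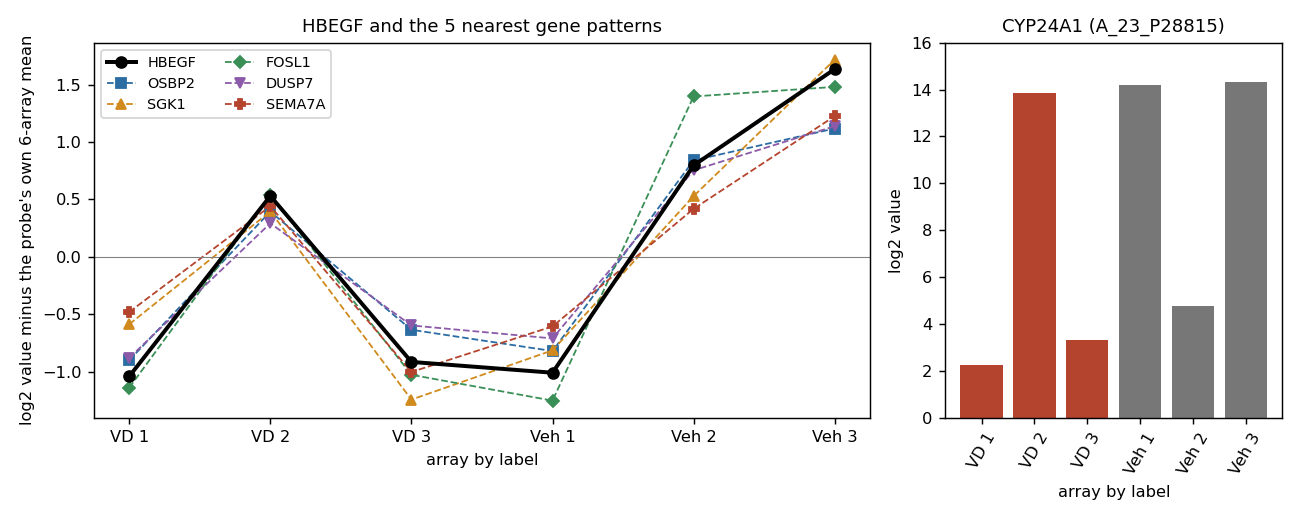
Left, log2 values of HBEGF (black) and of the 5 nearest genes on each array (x axis, by label) after subtraction of each probe's own 6-array mean, and right, the log2 values of CYP24A1 on the same arrays (VD red, vehicle grey). HBEGF is high on VD replicate 2 and vehicle replicates 2 and 3 (6.71 to 7.81), while CYP24A1 is high on VD replicate 2 and vehicle replicates 1 and 3 (13.84 to 14.34).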

How the data were processed

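Single-color arrays of 6 SKOV3 RNA samples were grouped by their labels, 3 VD and 3 vehicle. The authors scanned them with Agilent Feature Extraction 10.7.1.1 and deposited each spot's intensity and the scanner's flags on background, saturation and uneven brightness. A table that the authors deposited beside these files holds 1 log2 value per probe and array. Its sorted columns differed by at most 0.000913, so these values were quantile-normalized, and their rank correlation with the processed signals of the same array was 0.99982 to 0.99994; this scaling hides any shift common to all probes. These log2 values were used as deposited. Gene columns of the scanner files repeat the probe names, so probes were placed by exact sense match to GENCODE release 44 transcripts and to hg38, and 26900 of 125601 matched a protein-coding transcript. The sequence of 1 ERBB4 probe is not reported here. The leading probe of a gene has the highest mean over the 6 arrays.

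Labels were compared with limma 3.58.1 in R 4.3.3 (linear models, empirical Bayes, no covariate) on the 63336 probes flagged above background throughout at least 1 label, with Benjamini-Hochberg adjustment over all of them. The threshold in the study's methods, a log2 fold change beyond 2 in size together with an adjusted p under 0.05, called 0 member probes. The fit was tested on simulated data. Named by plan were all members, pathway genes past the unadjusted threshold (none) and the 5 pathway genes of widest range. The 5 genes nearest HBEGF, the member of widest range, were also named by plan. Named after their values were seen were pathway genes with an unadjusted limma p under 0.05 or with labels that did not overlap, and CD68. Other pathway genes and markers were named for their detection or the kind of transcript their probe matches. Members and lists were chosen with earlier results of these data known. Alternatives were scanner signals scaled to the 75th percentile, normexp correction with an offset of 50, other filters, blocks for slide or replicate number, the unpaired t-test that the methods name for experimental data (they name limma for the arrays), adjustment over coding probes and each array left out. The number of arrays limits the precision.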

Additional observations from a re-analysis of the deposited data

How the results depend on the processing

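No member probe was past the unadjusted threshold under any alternative except without vehicle replicate 1, where HBEGF was (0 to 1 over the arrays left out), and none was past the adjusted threshold or that of the methods under any alternative. Without vehicle replicate 1, 6 of the 21 had an unadjusted limma p under 0.05, and 4 probes of the whole table passed the adjusted threshold, none of them a member. The t-test found 1 of the 21 under an unadjusted 0.05, EGF OEV5_16829, and not the EGFR probe that limma found. The pathway genes past the unadjusted threshold numbered 0 to 1 with arrays left out (DUSP6 without VD replicate 1 or vehicle replicate 3, FOSL1 without vehicle replicate 1). Over all probes, the 472 became 34 with normexp, 1612 with no background filter, 157 with the flag on all 6 arrays, 808 with the slide as a block, 139 by the t-test and 100 among coding probes, and 296 (without VD replicate 1) to 1181 (without VD replicate 3) with arrays left out, 1110 without vehicle replicate 1. The causes were not tested, beyond the fewer or more probes that the filters leave.

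The slide as a block and slide 2 alone give the same estimate, of VD replicate 3 alone against the vehicle arrays. By it, log2 fold changes turned to 0.12 for EGF OEV5_47762, 0.26 for AREG A_23_P259071 and 0.47 for TGFA OEV5_35791. They turned to -0.086 for EREG OEV5_40189, 0.16 for NRG1 OEV5_34962 and 0.26 for MYC. With normexp the value turned to -0.0057 for NRG1 A_23_P315815. With single arrays left out, the sign changed within -0.32 to 0.12 for EGFR A_23_P215790, -0.10 to 0.40 for ERBB3 A_23_P349416, -0.10 to 0.093 for ERBB4 OEV5_01560, -0.34 to 0.049 for EGF OEV5_47762, -0.37 to 0.0088 for AREG A_23_P259071, -0.67 to 0.065 for TGFA OEV5_35791, -0.20 to 0.58, -0.23 to 0.58 and -0.19 to 0.070 for NRG1 A_23_P315815, A_33_P3284345 and OEV5_34962, -0.65 to 0.34 for CCND1, -0.58 to 0.30 for MYC and -0.65 to 0.21 for DUSP5. CD68 missed the unadjusted threshold with normexp (-0.95) and by the t-test, and lay between -1.57 and -0.85 with arrays left out. Scaling to the 75th percentile turned no member probe. Either filter and the t-test keep the same label means, so they could not turn one.

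Same-numbered arrays of the labels shared little (correlations of deviations 0.12, 0.092 and -0.025), so the numbers were not taken to pair them. The replicate block gave 582 probes over the whole table and 0 member probes past the unadjusted threshold. A probe near background bounds its transcript's level only from above.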
